A study of Mus musculus with 8 samples.

Results

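The proteasome genes of AML12 cells were taken as all gene symbols that begin with Psma to Psmg followed by a digit, which gave 56 of the 34945 named genes in the deposited table. Of these, 49 encode proteasome subunits, activators, an inhibitor or dedicated assembly factors. A further 5 symbols are pseudogenes, and 2 symbols match only by spelling: Psmc3ip, a meiotic recombination factor, and Psme3ip1, a protein that binds an activator subunit. Of the 56, 53 had a value above 0 in at least 1 library, and 50 reached the mean of 10 needed for testing, among them 47 of the 49 components. The 6 that did not were Psma8, a testis form of a core subunit that was listed at 0 in all libraries, Psme2b, which lay between 0 and 14.2, and 4 of the pseudogenes, which lay at 1.19 or below.

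AML12 is an established hepatocyte line made from mice transgenic for human transforming growth factor alpha. It is labelled wild type and was grown here with serum. The siCasp8 group held 4 cultures given siRNAs against Casp8, which encodes an initiator caspase, and the Scr group held 4 cultures given a scrambled siRNA. Both groups received 40 nM siRNA with the same lipid reagent and were collected after 48 h, and poly-A RNA was sequenced. The study asked which secreted genes differ when Casp8 is silenced in hepatocytes. All cultures come from 1 cell line, and neither the siRNA sequences nor how many siRNAs were mixed is stated in the labels.

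The proteasome degrades proteins tagged with ubiquitin. Its 20S core is a stack of rings: outer alpha rings form the gate, and inner beta rings carry the proteolytic sites of Psmb5, Psmb6 and Psmb7. The 19S regulatory particle caps the core; its base holds 6 ATPases that unfold substrates, and its lid removes the ubiquitin chain. Core and cap together make the 26S proteasome. Interferon signalling can replace the catalytic subunits by Psmb8, Psmb9 and Psmb10, giving the immunoproteasome, which favours peptides for presentation on MHC class I.

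Casp8 itself had normalized values of 1374, 1431, 1627 and 1490 in siCasp8 libraries, against 3936, 3995, 4134 and 3825 in Scr libraries. The groups did not overlap, and the siCasp8 mean was 37.3% of the Scr mean (log2 fold change -1.43, SE 0.0525, limma adjusted p = 5.94e-09). The hepatocyte genes of a marker list summed to 82357 to 85082 in siCasp8 and 66001 to 71350 in Scr libraries. Of 10 tested markers, 5 were higher and 2 lower. Abundant genes weigh most in such sums. Alb had a mean of 3626 in siCasp8 and 86.4 in Scr libraries, while Apob had 21951 in siCasp8 and 26046 in Scr. Of the leukocyte markers, Adgre1 was at 0 everywhere, 2 of 4 tested were lower, and the list summed to 2200 to 2349 in siCasp8 and 2835 to 3038 in Scr libraries. The cholangiocyte list summed to 118267 to 125969 in siCasp8 and 102415 to 111592 in Scr libraries (2 of 5 higher, 2 lower). Most of that sum was Spp1 (mean 104055 in siCasp8 and 89795 in Scr), while Krt19 and Krt7 were lower. The stellate list summed to 96.1 to 170 in siCasp8 and 115 to 171 in Scr libraries (1 of 2 higher, 1 lower). Of the endothelial markers, Cdh5 and Lyve1 were at 0, and the 1 tested was not called. Of the hepatocyte markers, Apoa2, Apoc3 and Cyp3a11 were at or near 0 in both groups. These markers were read in cultures of 1 cell line, so the lists do not count cell types. The part of these shifts in the proteasome results was not tested. In bulk RNA, fewer cells that express a marker and less RNA per cell cannot be told apart.

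Of the 31 constitutive 26S subunit genes that the symbol rule matched, 21 had lower transcript levels after Casp8 siRNA, by small amounts. None was higher and 10 did not pass the test, while of all tested genes 20.8% were lower and 19.4% higher. The subunits Sem1 and Adrm1 have other symbols and are not among the 31. A gene counts as higher or lower when limma's moderated test on log2(value + 1) gives a Benjamini-Hochberg adjusted p under 0.05 over all 14154 genes with a mean of at least 10. The fitted difference was below 0 for 30 of the 31; the median difference was -0.13 on the log2 scale (range -0.30 to 0.01), and over all tested genes it was 0.003. By mean levels, the subunits stood at 81.3% to 101% of their Scr level.

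These counts are read against a comparison in which much of the transcriptome differed. Over all 14154 tested genes, 40.2% were called in either direction. The 26S subunits had 67.7% lower and 0% higher. Of the 5089 tested genes whose mean level lay within the range of these subunits, 28.3% were lower, and their median difference was -0.03 on the log2 scale. Over all 50 tested symbols of the proteasome rule, 23 were lower and none was higher. The groups did not overlap for 20 of the 31 subunits, all with the siCasp8 libraries below, while over all genes 19.5% had every siCasp8 library lower and 18% had every siCasp8 library higher.

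The difference was shared by the libraries of each group. Relative to the Scr mean of each gene, the average of log2(value + 1) over the 31 subunits was -0.15, -0.15, -0.11 and -0.13 in the siCasp8 libraries, against 0.02, 0.01, -0.01 and -0.01 in the Scr libraries. All 4 siCasp8 libraries thus lay below all Scr libraries. In each siCasp8 library between 24 and 28 of the 31 subunits were below the lowest Scr value. Sequencing depth moved with the groups: the estimated depth was 50.5 to 57.1 M reads in siCasp8 and 30.7 to 51.8 M in Scr libraries. Within Scr, the averages were 0.02 and 0.01 in the libraries of 31.5 and 30.7 M reads and -0.01 in those of 38.3 and 51.8 M, so the deeper Scr libraries were the lower ones. At similar depths, Scr replicate 4 (51.8 M reads) averaged -0.01 and siCasp8 replicate 1 (50.5 M reads) averaged -0.15, with 1 library on each side. Depth and group cannot be fully told apart. With estimated depth as a covariate, 6 of the 31 subunits were still lower (Psma2, Psmd1, Psmd2, Psmd11, Psmd13 and Psmd14), the share of all genes that were lower was 10.4%, and the median of the 31 was -0.12. With upper quartile scaling, 14 of the 31 were lower (45.2%), while 17.9% of all genes were lower and 22.2% higher. With quantile normalization, 14 of the 31 were lower as well (45.2%), beside 18.9% and 21% of all genes.

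**Figure D1:**
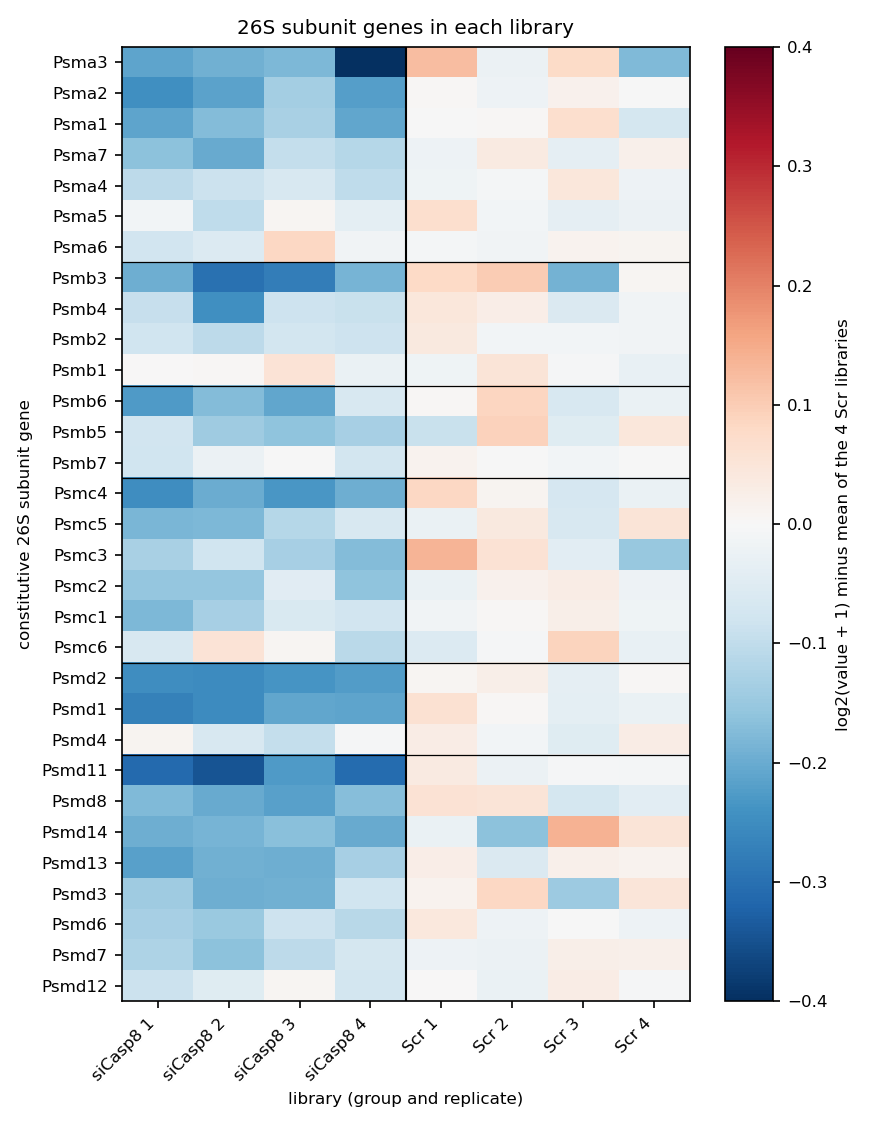
Log2(value + 1) of the 31 constitutive 26S subunit genes (rows, grouped by role) in each library (columns), relative to the mean of the 4 Scr libraries; blue is lower and red is higher, and the colour scale ends at ±0.4. The 4 siCasp8 columns on the left are blue in most rows, with averages of -0.15 to -0.11, while the Scr columns average -0.01 to 0.02.

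**Figure D2:**
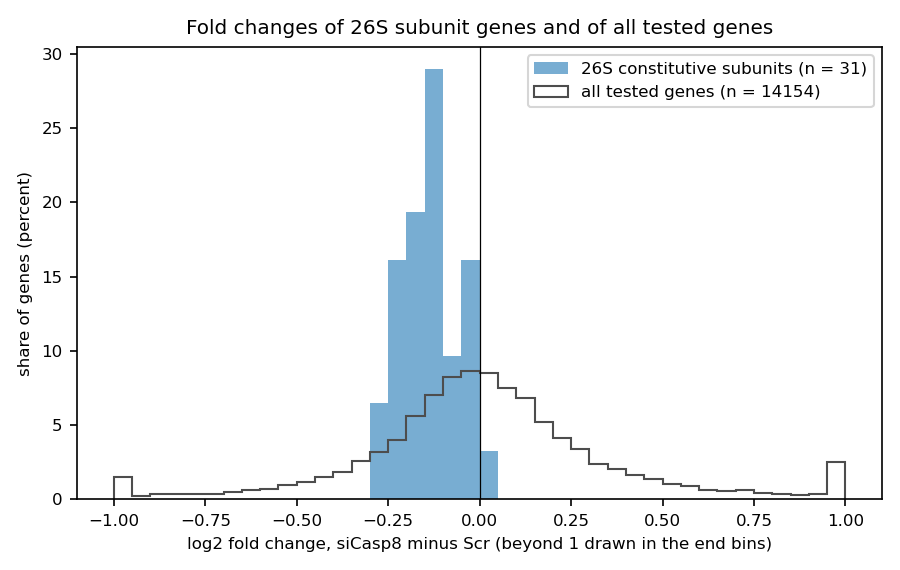
Share of genes (vertical axis, percent) by log2 fold change, siCasp8 minus Scr (horizontal axis), for the 31 constitutive 26S subunits (filled) and all 14154 tested genes (outline). The subunits lie between -0.30 and 0.01 with a median of -0.13, and all tested genes centre on 0.003.

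In the lid, 7 of the 8 matched genes were lower (median difference -0.17 on the log2 scale). With upper quartile scaling or quantile normalization 4 were lower, beside 17.9% and 18.9% of all genes. With depth as a covariate 3 were lower, beside 10.4% of all genes. Psmd11, a lid subunit that clamps the lid to the base and core, had 4368, 4270, 4630 and 4376 in siCasp8 libraries, against 5556, 5339, 5399 and 5397 in Scr libraries. The groups were well separated (4411 ± 153 against 5423 ± 92.9, SD, n = 4 each), and this was the largest fall among the 26S subunits (log2 fold change -0.30, SE 0.0356, limma adjusted p = 3.36e-05). Psmd8, a small lid subunit that is added late in lid assembly in yeast, had 11176, 10995, 10869 and 11225 in siCasp8 libraries, against 13170, 13112, 12046 and 12289 in Scr libraries. Every siCasp8 library was below every Scr library (log2 fold change -0.19, SE 0.0366, limma adjusted p = 0.00117), though the difference was -0.12 with depth as a covariate (limma adjusted p = 0.138).

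Among the other lid genes, Psmd14, the deubiquitinase that cuts ubiquitin from substrates, had a mean of 4309 ± 47.2 in siCasp8 and 4922 ± 434 in Scr libraries (log2 fold change -0.19, and -0.30 with depth as a covariate), and the libraries of the groups did not overlap. Its inactive partner Psmd7 differed by -0.12 on the log2 scale, and the structural subunits Psmd13, Psmd3 and Psmd6 by -0.18, -0.15 and -0.12. Of these, the groups overlapped for Psmd3 alone. The calls of some depended on 1 library: Psmd7 missed the threshold without siCasp8 replicate 2 (limma adjusted p = 0.0669), Psmd6 without siCasp8 replicate 1 or 2 or Scr replicate 1 (0.0504 to 0.0632), and Psmd3 without any 1 of 6 libraries, all but siCasp8 replicate 4 and Scr replicate 3 (0.0536 to 0.0790). Psmd12, the remaining matched lid subunit, was not called (log2 fold change -0.05, 95% interval -0.12 to 0.02). Sem1, a lid subunit with another symbol, was not called either (-0.08, limma adjusted p = 0.177). With depth as a covariate Sem1 was lower (-0.20, limma adjusted p = 0.0349).

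In the base, transcripts of both large scaffold subunits fell. Psmd2, which docks shuttle proteins that carry ubiquitinated substrates, had 7058, 7050, 7123 and 7178 in siCasp8 libraries, against 8438, 8528, 8176 and 8406 in Scr libraries. Replicates of Psmd2 lay close together (7102 ± 60.0 against 8387 ± 150, SD, n = 4 each; log2 fold change -0.24, SE 0.0300, limma adjusted p = 4.94e-05). Psmd1 had 8428, 8531, 8803 and 8793 in siCasp8 libraries, against 10605, 10197, 9891 and 9989 in Scr libraries. Those groups were also separate (log2 fold change -0.24, SE 0.0338, limma adjusted p = 0.000148). Exons of Psmd1 overlap the predicted gene Gm21972 on the same strand in the annotation, so its reads may be divided. Psmd4, a ubiquitin receptor of the base, was not called (log2 fold change -0.04, 95% interval -0.12 to 0.04).

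Of the 6 ATPases, 4 were lower (median log2 fold change -0.13). With depth as a covariate none of the 4 was called (limma adjusted p = 0.0617 for Psmc4, 0.105 for Psmc5, 0.227 for Psmc1 and 0.241 for Psmc2). Psmc4 had 5460, 5660, 5517 and 5672 in siCasp8 libraries, against 6870, 6537, 6197 and 6367 in Scr libraries. The groups did not overlap, and its fall was the largest of the ring (log2 fold change -0.22, SE 0.0378, limma adjusted p = 0.000595). Psmc2 had 4627, 4620, 4985 and 4604 in siCasp8 libraries, against 5054, 5206, 5256 and 5071 in Scr libraries, with siCasp8 replicate 3 nearest to the Scr range (log2 fold change -0.13, SE 0.0369, limma adjusted p = 0.0145). Psmc5 and Psmc1 differed by -0.13 and -0.11, without overlap. Psmc5 missed the threshold without siCasp8 replicate 1 or 2 or Scr replicate 4 (limma adjusted p = 0.0615 to 0.0674), and Psmc1 without siCasp8 replicate 1 or 2 or Scr replicate 3 (0.0519 to 0.0935). Psmc3 was not called (-0.13, limma adjusted p = 0.0813), but it was without Scr replicate 4 (-0.18, limma adjusted p = 0.0121). Psmc6 had the smallest difference of the 6 (-0.03, 95% interval -0.12 to 0.07).

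The 20S core had 8 of 14 genes lower (median log2 fold change -0.13), 5 of them among the 7 alpha subunits. With depth as a covariate 1 of the core genes was lower, Psma2. The core median was then -0.09, and that of the 19S particle was -0.15. Psma2 had 5167, 5289, 5583 and 5262 in siCasp8 libraries, against 6148, 6049, 6202 and 6124 in Scr libraries. The Scr values of Psma2 span little and all lie above the siCasp8 values (log2 fold change -0.20, SE 0.0342, limma adjusted p = 0.000464). Psma1 had 4780, 4903, 5053 and 4787 in siCasp8 libraries, against 5521, 5553, 5790 and 5266 in Scr libraries, again without overlap (log2 fold change -0.18, SE 0.0379, limma adjusted p = 0.00226). Psma3 had the largest alpha difference but the widest spread (2868 ± 235 in siCasp8 and 3427 ± 308 in Scr libraries, log2 fold change -0.26), and with depth as a covariate its difference was -0.09 (limma adjusted p = 0.597), smaller than those of Psma2 (-0.21) and Psma7 (-0.15). Psma7 fell by 0.14 on the log2 scale. Psma4, whose counterpart in yeast has a tail that helps close the gate of the core, was called at -0.09 but missed the threshold when any 1 of 7 libraries, all but siCasp8 replicate 3, was left out (limma adjusted p = 0.0505 to 0.101). Psma5 and Psma6 were not called (95% intervals -0.12 to 0.05 and -0.10 to 0.07).

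Of the 4 beta subunits without a proteolytic site, Psmb3 and Psmb4 were lower. Psmb3 had 2632, 2447, 2487 and 2649 in siCasp8 libraries, against 3181, 3232, 2643 and 3031 in Scr libraries. Scr replicate 3 lay within the siCasp8 range, so the groups overlapped (log2 fold change -0.24, SE 0.0603, limma adjusted p = 0.00718). Psmb4 had 3390, 3052, 3412 and 3402 in siCasp8 libraries, against 3731, 3683, 3474 and 3584 in Scr libraries, without overlap (log2 fold change -0.13, SE 0.0448, limma adjusted p = 0.0386). Without siCasp8 replicate 1 or 2, or Scr replicate 1, 2 or 4, Psmb4 missed the threshold (limma adjusted p = 0.0535 to 0.128), and with depth as a covariate its difference was -0.08 (0.515). Psmb2 was not called although its groups did not overlap (log2 fold change -0.09, limma adjusted p = 0.0668). Psmb1 had means of 6579 ± 150 in siCasp8 and 6540 ± 166 in Scr libraries and was the 1 subunit of the 31 with a difference above 0 (0.01, 95% interval -0.06 to 0.08).

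Of the 3 proteolytic subunits, 1 passed the test. Psmb6, which cuts after acidic residues, had 3613, 3755, 3665 and 4047 in siCasp8 libraries, against 4250, 4488, 4049 and 4151 in Scr libraries. The highest siCasp8 and the lowest Scr library nearly touched (log2 fold change -0.17, SE 0.0458, limma adjusted p = 0.0112). Psmb5, the chymotrypsin-like subunit that bortezomib blocks, had 1671, 1595, 1577 and 1608 in siCasp8 libraries, against 1658, 1878, 1703 and 1817 in Scr libraries. Those groups overlapped by 1 library on each side, and the gene was not called (log2 fold change -0.13, limma adjusted p = 0.0550), though it was without Scr replicate 1 (limma adjusted p = 0.0274) or Scr replicate 3 (0.0447). Psmb7, the trypsin-like subunit, had 3425, 3564, 3618 and 3440 in siCasp8 libraries, against 3654, 3620, 3595 and 3616 in Scr libraries, and its difference was small (log2 fold change -0.04, 95% interval -0.12 to 0.03).

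**Figure D3:**
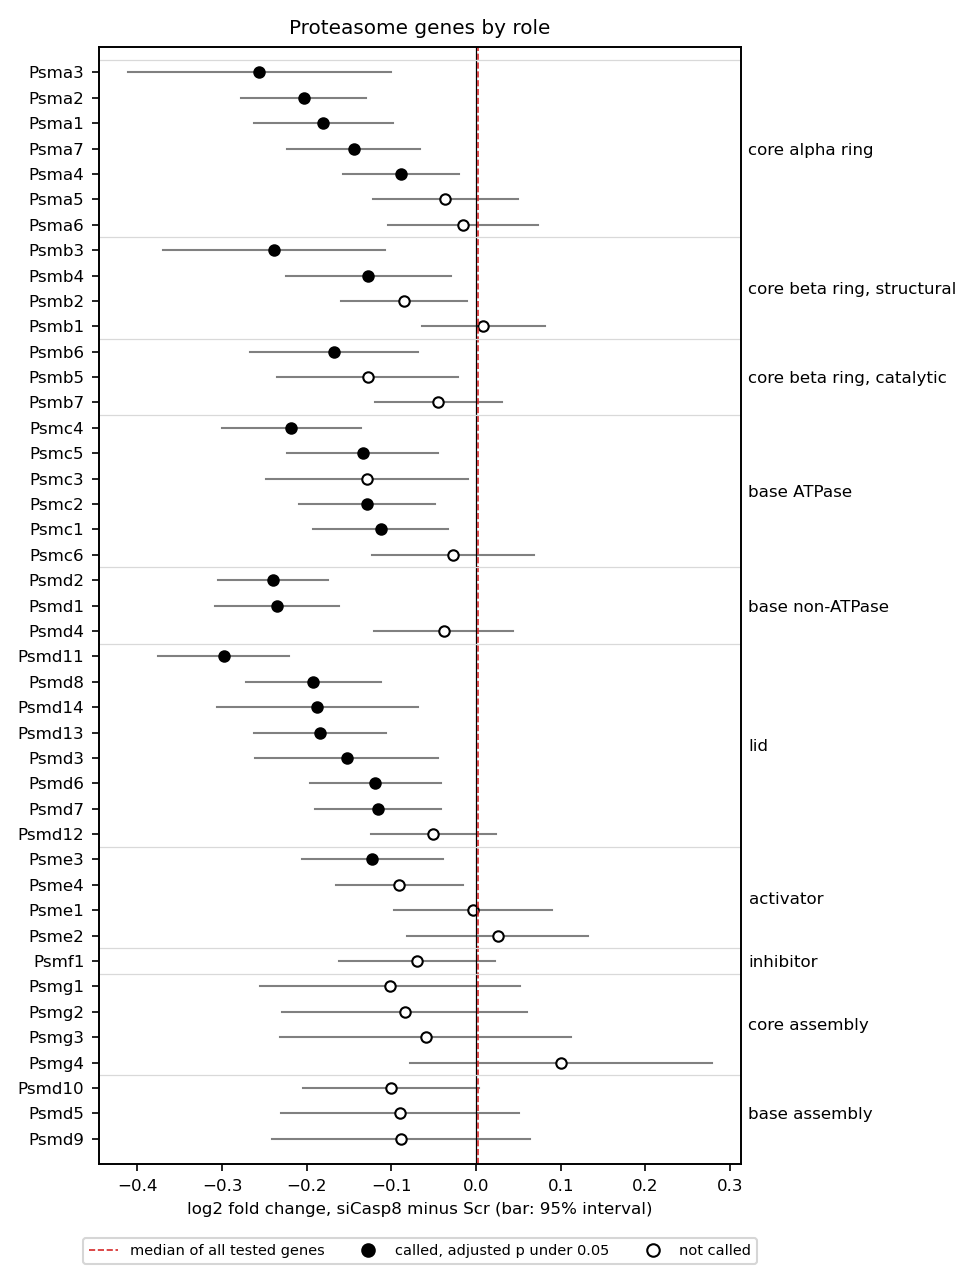
Log2 fold change, siCasp8 minus Scr, of tested proteasome genes by role, leaving out the immunoproteasome and thymus genes (points, filled where the adjusted p is under 0.05; bars are 95% intervals; dashed line is the median of all tested genes). Every filled point lies left of 0, between -0.30 and -0.09, and none stands among the inhibitor or assembly factor genes.

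Of 16 tested components outside the constitutive 26S particle, 1 was lower (6.25%) and none higher, beside 20.8% lower and 19.4% higher of all tested genes (median difference -0.06 on the log2 scale). The difference between these components and the 26S subunits was not tested. Psme3, the nuclear activator that opens the core without ATP, was the 1 called. It had 6756, 7051, 7130 and 6514 in siCasp8 libraries, against 7671, 7193, 7574 and 7432 in Scr libraries, without overlap (log2 fold change -0.12, SE 0.0381, limma adjusted p = 0.0223). The call was lost without siCasp8 replicate 1 or 4 or Scr replicate 1 (limma adjusted p = 0.0604 to 0.0722). Psme4, a large activator known from spermatogenesis and DNA repair, just missed the threshold (8866 ± 274 in siCasp8 and 9438 ± 231 in Scr libraries, log2 fold change -0.09, limma adjusted p = 0.0526) and passed it without siCasp8 replicate 3 (0.0323) or Scr replicate 2 (0.0480). The interferon-inducible activator pair Psme1 and Psme2 had 3009 ± 144 and 3025 ± 157 in siCasp8, against 3015 ± 85.0 and 2972 ± 152 in Scr libraries, with 95% intervals of -0.10 to 0.09 and -0.08 to 0.13 on the log2 scale. Psmf1, an inhibitor of the core, was not called (log2 fold change -0.07, 95% interval -0.16 to 0.02).

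None of the 7 assembly factors was called at an adjusted p under 0.05, nor was any at an unadjusted p under 0.05. Their median log2 fold change was -0.09, with a range of -0.10 to 0.10. The alpha ring chaperones are Psmg1 to Psmg4. Of these, Psmg1 had 427 ± 9.99 in siCasp8 and 459 ± 32.3 in Scr libraries, and Psmg4 was the 1 assembly factor with a value above 0 (373 ± 20.2 in siCasp8 and 349 ± 30.1 in Scr libraries, 95% interval of the log2 difference -0.08 to 0.28). The chaperones of the ATPase ring are Psmd5, Psmd9 and Psmd10. Psmd10, also called gankyrin, had 960 ± 27.8 in siCasp8 and 1029 ± 22.5 in Scr libraries, and its groups did not overlap (log2 fold change -0.10, limma adjusted p = 0.113). The 95% intervals of all of these but Psmg4 include the median difference of the 26S subunits.

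The immunoproteasome subunits were not called either, and Psmb8 and Psmb9 sat near the floor of the data. Psmb9 had 17.1, 29.3, 38.8 and 15.5 in siCasp8 libraries, against 7.40, 8.95, 3.95 and 24.6 in Scr libraries. The Scr library at 24.6 reached into the siCasp8 range (25.2 ± 11.0 against 11.2 ± 9.15, SD, n = 4 each; log2 fold change 1.27, SE 0.478, limma adjusted p = 0.0510). Psmb9 passed the threshold without siCasp8 replicate 4 (1.46, limma adjusted p = 0.0475) or without Scr replicate 4 (1.72, limma adjusted p = 0.00729). With depth as a covariate its difference was 0.37 (limma adjusted p = 0.772). Psmb8 had 29, 26.1, 20.3 and 19.1 in siCasp8 libraries, against 9.48, 19.5, 12.5 and 18.7 in Scr libraries. These overlapped as well (log2 fold change 0.65, SE 0.296, limma adjusted p = 0.1003).

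At the estimated depths, Psmb8 rests on 23.7 to 33.3 reads per library in siCasp8 and 6.58 to 21.5 in Scr, and Psmb9 on 19.5 to 45.2 in siCasp8 and 3.31 to 28.3 in Scr. Psmb10 was far more abundant, with 770, 773, 639 and 771 in siCasp8 libraries, against 837, 826, 653 and 688 in Scr libraries. Its groups overlapped broadly (log2 fold change -0.02, 95% interval -0.22 to 0.18). Expressed per library against the constitutive subunit that each replaces, Psmb8 was 1.46% ± 0.264 of Psmb5 in siCasp8 and 0.844% ± 0.230 in Scr, Psmb9 was 0.674% ± 0.308 of Psmb6 in siCasp8 and 0.266% ± 0.222 in Scr, and Psmb10 was 21.1% ± 2.29 of Psmb7 in siCasp8 and 20.7% ± 2.49 in Scr (SD, n = 4 each, not corrected for length). Psmb11, the thymus form, was low and not called (46.2 ± 7.74 in siCasp8 and 36.7 ± 14.6 in Scr libraries).

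**Figure D4:**
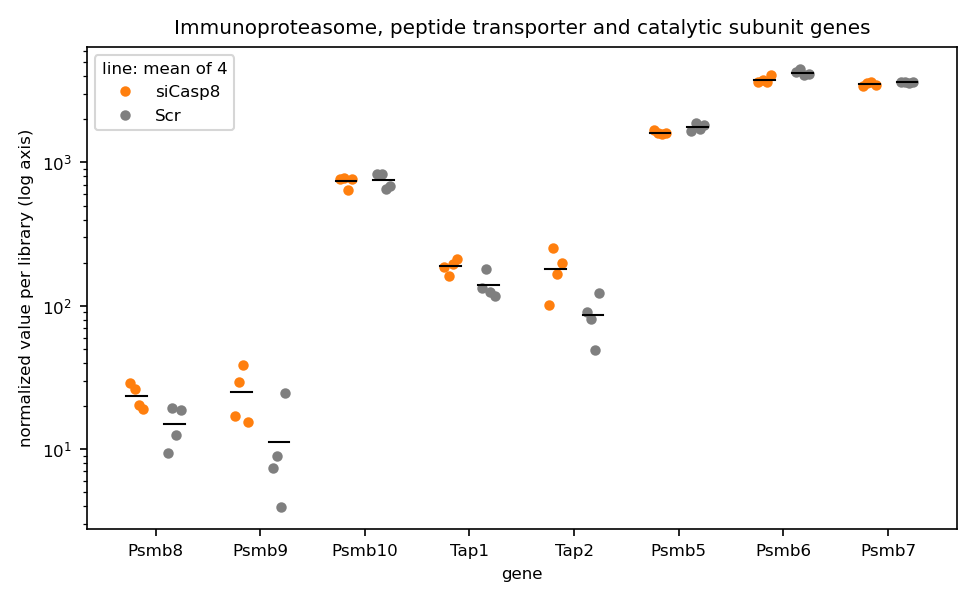
Normalized value per library (points, log axis; lines are means of 4) for immunoproteasome genes, the peptide transporter genes Tap1 and Tap2 and the constitutive catalytic subunits, siCasp8 left of Scr. Psmb8 and Psmb9 lie between 3.95 and 38.8 in all libraries, while Psmb5, Psmb6 and Psmb7 lie between 1577 and 4488.

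Psmb8 and Psmb9 share a stretch of the MHC region with the transporter genes Tap1 and Tap2, which carry peptides into the endoplasmic reticulum. In the GENCODE annotation of GRCm38, Psmb9 lies at chr17:34181987-34187764 on the minus strand and overlaps Tap1, at chr17:34187553-34197225 on the plus strand, by 212 bases. Psmb8 starts 495 bases beyond the end of Tap1. Both transporter genes were higher (Tap1 189 ± 22.0 in siCasp8 and 139 ± 28.9 in Scr, log2 fold change 0.46, limma adjusted p = 0.0242; Tap2 180 ± 62.9 in siCasp8 and 85.7 ± 30.3 in Scr, log2 fold change 1.06, limma adjusted p = 0.0117), though the groups of both overlapped. Tap1 missed the threshold without siCasp8 replicate 1, 3 or 4 or Scr replicate 3 or 4 (limma adjusted p up to 0.0732), and Tap2 with depth as a covariate (0.57, limma adjusted p = 0.413), which put Tap1 at 0.76 (0.0245). The labels do not say whether strand was used in counting, so reads of the shared bases of Psmb9 and Tap1 could not be told apart.

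A list of 23 interferon and antigen presentation genes, 21 of them tested, gave 9 higher (42.9%) and 5 lower (23.8%), beside 19.4% and 20.8% of all tested genes. With depth as a covariate, 6 were higher and 2 lower. Higher were Tapbp, which loads peptides onto MHC class I (6005 ± 198 in siCasp8 and 4757 ± 101 in Scr libraries, log2 fold change 0.34), the GTPase Gbp2 (0.60) and the chemokine Cxcl10 (0.76). Among the lower were the antiviral genes Ifit3 (402 ± 23.9 in siCasp8 and 786 ± 36.0 in Scr libraries, log2 fold change -0.97) and Ifit2 (-0.55). Their relative Ifit1 was higher (0.59, limma adjusted p = 0.0348). The antigen processing genes B2m (-0.14, limma adjusted p = 0.0223) and Erap1 (-0.25, 0.0377) were lower, unlike Tap1, Tap2 and Tapbp. The groups of Ifit1, B2m and Erap1 overlapped, and with depth as a covariate they were not called (limma adjusted p = 0.415, 0.465 and 0.190). The list thus held called genes in both directions beside the uncalled Psmb8, Psmb9 and Psmb10. Irf1, which drives immunoproteasome genes, was not called (95% interval of its log2 difference -0.11 to 0.10).

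Of 34 listed genes that work with the proteasome, 33 were tested. The list includes the subunits Sem1 and Adrm1. Of these, 7 were higher and 7 lower (21.2% each way), close to the 19.4% and 20.8% of all tested genes, and 3 were higher and 2 lower with depth as a covariate. Lower were Vcp, the ATPase that extracts ubiquitinated proteins (8339 ± 304 in siCasp8 and 9592 ± 191 in Scr libraries, log2 fold change -0.20), and the shuttles Rad23b (-0.32) and Ubqln1 (-0.20). Reads of Vcp may be divided with its related sequence Vcp-rs, which was itself at -0.21. Lower as well were the deubiquitinase Uchl5 (-0.27), Adrm1 (-0.17), the ubiquitin receptor that recruits it, Txnl1 (-0.18), a thioredoxin that binds the 19S particle, and the ubiquitin-activating enzyme Uba1 (-0.09). Adrm1 missed the threshold without siCasp8 replicate 2 (limma adjusted p = 0.0540), and Uba1 without siCasp8 replicate 1, 2 or 3 or Scr replicate 1 or 2 (0.0573 to 0.106). With depth as a covariate, the differences were -0.13 for Rad23b, -0.12 for Ubqln1, -0.10 for Adrm1 and -0.06 for Uba1. These 4 were not called. Uchl5 and Txnl1, both at -0.19, were not called either (limma adjusted p = 0.130 and 0.0559). Vcp kept its call (limma adjusted p = 0.0245), and the other lower gene was then Sem1.

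Higher were Zfand2a, which binds the 19S particle under arsenite stress (1815 ± 92.7 in siCasp8 and 1178 ± 76.9 in Scr libraries, log2 fold change 0.62), Rps27a, a ubiquitin and ribosomal protein fusion (0.15), and Fbxo7, a partner of Psmf1 (0.30). The shuttle Ubqln2 (0.18) and Pithd1 (0.32) were also higher. With depth as a covariate, Pithd1 was at 0.01 (limma adjusted p = 0.972), Fbxo7 at 0.16 (0.246) and Rps27a at 0.12 (0.124). None of these was called, while Zfand2a and Ubqln2 stayed called. Ddi2, another listed gene, was not called in the main test (0.09, limma adjusted p = 0.0889) but was higher with depth as a covariate (0.19, 0.0399). It was also called with upper quartile scaling, with quantile normalization and without Scr replicate 1 (limma adjusted p = 0.0436). Of genes that control subunit transcription, Nfe2l1, the factor that raises subunit genes when the proteasome is inhibited, had 10580 ± 280 in siCasp8 and 10230 ± 1011 in Scr libraries and was not called (log2 fold change 0.05, 95% interval -0.07 to 0.18). Ngly1, which processes the Nfe2l1 protein, was higher (0.28), as was Nfe2l2, the related oxidative stress factor (0.10). Neither was called with depth as a covariate (0.25 and 0.12, limma adjusted p = 0.117 and 0.153). Nfe2l2 missed the threshold without siCasp8 replicate 2 or 3 or Scr replicate 1 or 4 (limma adjusted p = 0.0669 to 0.0934), and Pithd1 without siCasp8 replicate 1, 2 or 3 or Scr replicate 1 or 2 (0.0694 to 0.0989). Pomp, the core maturation factor, was not called (0.05, 95% interval -0.08 to 0.18).

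Promoter windows are shown for 4 of the subunits that fell, since 21 of the 31 26S genes were lower. The 31 lie on 14 chromosomes, with at most 6 on 1 chromosome (chromosome 11). Each window is the 250 bases before the RefSeq start site in GRCm38.p6 on the plus strand, 5′ to 3′, with the motif match in capitals: the reverse complement of the ETS-type motif CCGGAAG in Psmd11 and Psmd2, CCAAT in Psma2 and the antioxidant-response-type motif TGACNNNGC in Psmb6. Psmd11 is at chr11:80428365-80428614, Psmd2 at chr16:20651402-20651651, Psma2 at chr13:14612992-14613241 and Psmb6 at chr11:70525107-70525356.
Psmd11: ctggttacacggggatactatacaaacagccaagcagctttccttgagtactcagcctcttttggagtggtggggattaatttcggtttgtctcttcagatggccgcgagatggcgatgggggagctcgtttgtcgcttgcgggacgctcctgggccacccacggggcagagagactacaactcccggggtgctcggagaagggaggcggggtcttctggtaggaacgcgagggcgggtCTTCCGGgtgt
Psmd2: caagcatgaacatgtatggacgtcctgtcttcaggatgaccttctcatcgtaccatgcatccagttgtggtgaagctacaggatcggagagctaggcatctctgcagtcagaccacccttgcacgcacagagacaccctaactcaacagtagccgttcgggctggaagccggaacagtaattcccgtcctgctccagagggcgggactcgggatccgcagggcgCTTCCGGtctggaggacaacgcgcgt
Psma2: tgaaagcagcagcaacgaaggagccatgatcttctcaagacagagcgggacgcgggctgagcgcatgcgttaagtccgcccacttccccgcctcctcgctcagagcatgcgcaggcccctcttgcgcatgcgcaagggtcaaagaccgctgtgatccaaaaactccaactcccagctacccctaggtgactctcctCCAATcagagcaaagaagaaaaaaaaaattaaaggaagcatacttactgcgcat
Psmb6: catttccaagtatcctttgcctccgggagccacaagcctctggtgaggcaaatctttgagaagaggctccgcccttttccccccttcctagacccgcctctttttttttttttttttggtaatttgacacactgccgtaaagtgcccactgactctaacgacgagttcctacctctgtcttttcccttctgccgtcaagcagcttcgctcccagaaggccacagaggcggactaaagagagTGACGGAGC

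The matches end 5 bases before the start in Psmd11, 20 before it in Psmd2, 50 before it in Psma2 and 1 before it in Psmb6. Of the 56 symbols, 43 had a window, including 25 of the 31 subunit genes. On either strand, CCGGAAG was found in 9 of the 25 (36%), against 15.0% of the windows of tested genes. It was found in 5 of the 19 windows of called subunits (26.3%) and 4 of the 6 of uncalled ones (66.7%), a higher share among the uncalled. TGACNNNGC was found in 4 of the 25 (16%), against 13.6% of tested genes, with 1 of the 19 called (5.26%), Psmb6, and 3 of the 6 uncalled (50%). CCAAT was found in 10 of the 25 (40%), against 41%, with 8 of the 19 called (42.1%) and 2 of the 6 uncalled (33.3%). An interferon-response-type motif was found in 2 (8%), against 3.2%. The narrower TGACTNNGC, which is contained in TGACNNNGC, and GCGTGAC were each in 1 window, and TGACTCAGC and TGACGTCA in none.

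Per kilobase of transcript, the level of every constitutive subunit was above that of every assembly factor. The mean normalized value per kb had a median of 3273 over the 14 core genes in siCasp8 and 3540 in Scr libraries, and of 2742 in siCasp8 and 3007 in Scr over the 17 genes of the 19S particle. Levels differed among the subunits, and the highest core gene was 3.51 times the lowest in siCasp8 and 3.12 times in Scr. Psmd8 was highest of the particle, with 6888 ± 102 per kb in siCasp8 and 7877 ± 356 in Scr libraries. Assembly factors had a median of 625 in siCasp8 and 668 in Scr, Psmb10 had 563 ± 50.3 in siCasp8 and 573 ± 72.0 in Scr, and Psmb8 and Psmb9 had 14.5 ± 2.88 and 18.6 ± 8.13 in siCasp8, against 9.25 ± 2.99 and 8.30 ± 6.77 in Scr.

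**Figure D5:**
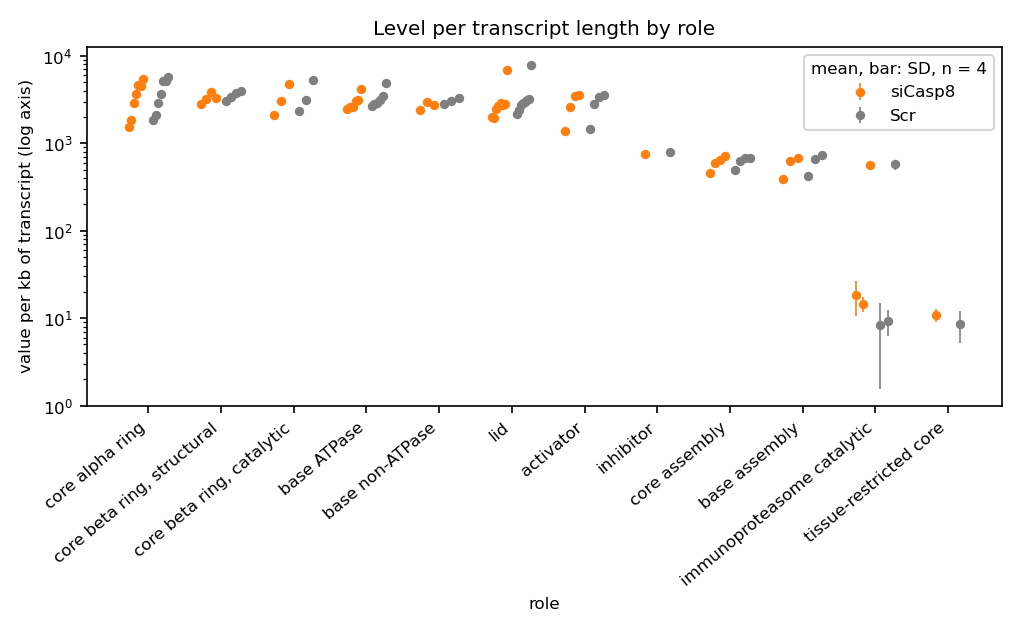
Mean normalized value per kb of transcript (log axis; bars are SD, n = 4) for each tested component by role, siCasp8 left of Scr. Constitutive subunits lie between 1548 and 7877 per kb, assembly factors between 393 and 730, and Psmb8 and Psmb9 between 8.30 and 18.6.

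Replicates of the subunits agreed closely. The coefficient of variation between the 4 libraries had a median of 2.90% over the 31 subunits in siCasp8 and 2.68% in Scr, against 3.55% and 4.72% over the 5089 genes within the level range of the subunits and 5.39% and 7.01% over all tested genes. A log2 difference of -0.13 passed the test for Psmc2, but not for Psmc3 or Psmb5, whose Scr libraries varied by 8.61% and 5.75%. Psmb8, with a variation of 19.8% in siCasp8 and 32.3% in Scr, was not called at 0.65. Of the other matched symbols, Psmc3ip was lower (194 ± 8.87 in siCasp8 and 281 ± 30.4 in Scr libraries, log2 fold change -0.53, limma adjusted p = 0.000812), though not with depth as a covariate (0.0582), while Psme3ip1 (-0.05) and the pseudogene Psmb7-ps2 (0.10) were not called.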

How the data were processed

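Poly-A RNA of 8 cultures was sequenced with TruSeq chemistry, per the labels' protocols. The authors deposited 1 table of a normalized signal per gene symbol, which by its name holds kallisto estimates normalized with DESeq2. Tools in the submitters' processing notes are kallisto 0.44.0, bcl2fastq 2.19, DESeq2 and sleuth, and the builds are GRCm38 and GRCh38. Neither the annotation nor the summing of transcripts to genes is stated there. Totals carry no depth, so it was estimated from the value that 1 read is worth in each library. Reads were not recoverable as whole numbers (63.0% to 75.0% of low values within 0.1 read), so no count test was used.

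In R 4.3.3, limma 3.58.1 tested log2(value + 1) of siCasp8 minus Scr, two-sided, with a trend, no covariate and Benjamini-Hochberg adjustment over 14154 genes with a mean of at least 10. This scale understates changes of low genes. Library values are given for the 2 called genes of smallest adjusted p in each role, all catalytic subunits and called activators, and, from each list, the 3 called genes of smallest adjusted p in each direction are named. Some genes that this rule gives are not reported here. Other genes were named after their values were seen. The members and lists were chosen with earlier results of these data known. The test was checked on simulated data with independent noise in each gene and no depth difference between the groups. That check therefore says nothing about the depth difference here. The design text calls the cultures biological replicates. If they shared a thaw or passage, p-values measure only the spread between these samples. Alternatives covered the pseudocount, the filter, scaling, depth, the replicate number and leaving out each library. Positions and lengths come from GENCODE M21 and promoters from RefSeq. A line without a symbol held 0.0481% to 0.0631% of each total and was left out.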

Additional observations from a re-analysis of the deposited data

Results flagged for a closer look

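In 7 of 102 groups of 4 libraries, 1 library stood far from the other 3 (Dixon's criterion, which chance meets in about 1 of 20 groups). In siCasp8 libraries, Psma3 was lowest in replicate 4 at 2517 (next 2954), Psmb4 was lowest in replicate 2 at 3052 (next 3390), Psmb10 was lowest in replicate 3 at 639 (next 770), and Psmc2 was highest in replicate 3 at 4985 (next 4627). In Scr libraries, Psma4 was highest in replicate 3 at 6942 (next 6684), Psmb2 was highest in replicate 1 at 3006 (next 2906), and Psmd13 was lowest in replicate 2 at 4085 (next 4295).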

How the results depend on the processing

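Of the 23 symbols called lower, 6 were lower under all 17 alternatives (Psma2, Psmd1, Psmd2, Psmd11, Psmd13 and Psmd14), 9 missed the threshold only with depth as a covariate, and 15 were called in all 8 repeats without 1 library. None changed sign. The median log2 fold change of the 31 26S subunits lay between -0.14 and -0.10 under all 17 alternatives. With estimated depth as a covariate, 6 of the proteasome symbols, all of them 26S subunits, were lower, 0 other components, 3 higher and 2 lower of the genes that work with the proteasome, 2 lower of the interferon list, and 1289 higher and 1475 lower of all genes (2739 and 2950 without it). The cause of these changes was not tested. Upper quartile scaling gave 15 symbols lower and 1 higher (Psmb9, a component outside the 26S particle, where 0 were then lower). Of all genes, 17.9% were lower and 22.2% higher with that scaling. Quantile normalization gave 15 lower, 0 other components lower, 11 higher on the proteasome-related list and 3 lower on the interferon list. It gave 18.9% of all genes lower and 21% higher. A minimum mean of 50 gave 2 other components lower.

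The labels do not say that a replicate number marks a shared day or plate, so the main fit did not take the numbers as pairs. Same-numbered libraries of the groups correlated at 0.0442 to 0.169, and every library correlated best with its own number. With the replicate block, 25 symbols, 22 26S subunits and 2 other components were lower. Without 1 library, the symbols lower were 16 to 23 and higher 0 to 1, the 26S subunits lower 14 to 20, other components lower 0 to 2 and higher 0 to 1, the proteasome-related list 5 to 7 higher and 5 to 9 lower, the interferon list 7 to 9 higher and 3 to 5 lower, and all genes 2262 to 2765 higher and 2537 to 2978 lower. Casp8 lay between -1.47 and -1.39.

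Of the 27 tested symbols that were not called, 12 changed sign in some setting. With depth as a covariate these were Psma5 (0.013), Psmb10 (0.16), Psmc3 (0.041), Psmd5 (0.12), Psmf1 (0.0054), Psmg2 (0.034) and Psmg3 (0.058). With quantile normalization they were Psma5 (0.0016), Psma6 (0.019), Psmb7-ps2 (-0.056), Psmc6 (0.025) and Psme1 (0.027), and with upper quartile scaling Psma6 (0.011), Psmb10 (0.0065) and Psme1 (0.023). Without 1 library, Psma6 ranged from -0.048 to 0.0053, Psmb1 from -0.0064 to 0.026, Psmb10 from -0.085 to 0.047, Psmb7-ps2 from -0.18 to 0.26, Psmc6 from -0.054 to 0.0025, Psme1 from -0.033 to 0.020 and Psmg3 from -0.10 to 0.0021.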
